A study of Mus musculus with 24 samples.

Results

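The oligoadenylate synthetase family was read from the gene table of a study that treated 2 kinds of mouse myeloid culture, macrophages (BMDMs) and dendritic cells (BMDCs) grown from bone marrow, with DMXAA, an agonist of mouse STING. The members were the 8 genes whose names in the table were Oas1a, Oas1b, Oas1c, Oas1g, Oas2, Oas3, Oasl1 and Oasl2, out of 54532 genes. All 8 were found once, and all 8 passed the filter on low values in every fit. A pathway list of 26 genes was described beside them.

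BMDMs were differentiated in L929-conditioned medium, and BMDCs in GM-CSF and IL-4. The libraries labelled WT came from C57BL/6N mice with both Tmem173 alleles floxed (Tmem173 fl/fl), and those labelled CRE came from Tmem173 fl/fl mice that also carry a tamoxifen-inducible Cre under the control of the myeloid gene Lyz2. All donors, the WT ones included, were described as tamoxifen-induced. Tmem173 encodes STING. Cells received DMXAA, at 40 µM per the series description but given in µg/mL in the study's methods, or no agonist (control). For mice of these genotypes, the study's methods describe tamoxifen injection at several weeks of age and, in another experiment, of newborn mice. The age of the marrow donors of these libraries, the exposure time before sequencing and whether a library came from 1 animal or several were not given in the sources used here. Each of the 8 groups held 3 libraries numbered 1 to 3, and total counts ranged from 15657347 to 18080027 in BMDCs and from 16470157 to 18912887 in BMDMs. Nothing says that the libraries of a group came from separate animals or cultures, so p-values measure only the spread between these libraries, which may be technical.

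Several libraries stood apart, and the results are given with and without them. The 4 BMDM libraries numbered 3 held a summed level of 4.59 to 19.8 CPM (counts scaled to the library total) over 7 macrophage markers, all detected, against 9358 to 19746 in the other 8 BMDM libraries. They held 14549 to 20601 CPM of 8 fibroblast markers, against 54.0 to 680 in the other 8, and 5 pan-leukocyte markers summed to 1.13 to 14.5 against 1723 to 2645. Of 8 dendritic cell markers 4 were at 0 in them. In the 12 BMDC libraries the dendritic cell markers summed to 5239 to 13719 CPM, against 121 to 546 in the BMDM libraries numbered 1 and 2. They are shown apart throughout, and BMDM statistics rest on the 8 libraries numbered 1 and 2, so that each BMDM group had n = 2. Among those 8, both WT libraries numbered 2 held 625 to 680 CPM of the fibroblast markers, against 54.0 to 104 in the other 6. Both CRE BMDC libraries numbered 2 held 153 to 336 CPM of 6 neutrophil markers, against 6.96 to 21.8 in the other 10 BMDC libraries, and 2249 to 2390 CPM of the macrophage markers, against 6014 to 9009. The part of these transcripts in the results was not tested. In bulk libraries, fewer cells of a type and less RNA per cell cannot be told apart.

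Tmem173, the targeted gene, was not strongly reduced in the libraries labelled CRE, with the exception of BMDMs under DMXAA. In BMDCs its level in FPKM (fragments scaled by library size and by gene length) was 51.6, 28.8 and 35.3 in WT control libraries and 36.8, 19.7 and 28.4 in CRE control libraries, which overlap. Under DMXAA it was 55.3, 34.6 and 35.9 in WT and 33.2, 24.3 and 35.1 in CRE BMDCs, and the fold change (log2 -0.43 ± 0.28 SE) did not pass the test. In BMDMs under DMXAA it was 31.8 and 22.8 in WT and 9.12 and 10.1 in CRE libraries (log2 fold change -1.45 ± 0.24, edgeR adjusted p = 0.00921). The counts cover the whole gene, and reads outside the floxed part would be counted in both genotypes. In 4 cases a CRE BMDC library was closer to 1 WT BMDC library of the same treatment than any other pair of BMDC libraries were to each other. In these pairs a chi-square of the counts over genes, divided by its degrees of freedom, was 3.58 to 5.42, against at least 17.0 in every other BMDC pair of the same treatment. They differed by more than sampling noise and were kept as separate samples. Neither Tmem173 nor these pairs separated the BMDC libraries by their genotype label, so WT and CRE are used here as labels only. Among BMDM libraries numbered 1 and 2, the CRE pair was about as close, at 3.53 in control and 5.62 under DMXAA. The WT pair was at 111 and 84.1, and WT control number 1 was closer to the CRE control libraries (43.2 and 47.8). The small spread of the CRE BMDM groups rests on these close libraries.

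Oligoadenylate synthetases are antiviral enzymes made in response to interferon. On binding double-stranded RNA, the active enzymes join ATP into short oligoadenylates, which act as a second messenger of the antiviral state. The mouse carries a large cluster of these genes. Oas1a and Oas1g are active small synthetases, Oas2 and Oas3 are active larger ones with repeated synthetase units, Oas1b is cut short by an early stop in common laboratory strains, and Oas1c is a further copy of Oas1. Oasl1 and Oasl2 carry ubiquitin-like domains. Oasl1 lacks synthetase activity and is known to hold down translation of Irf7, a master factor of interferon production, while Oasl2 keeps the activity.

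All 8 members lie on mouse chromosome 5 in GRCm38, the build of the deposited coordinates. Oasl2 (ENSMUSG00000029561, bases 114896936 to 114912234, plus strand) and Oasl1 (ENSMUSG00000041827, 114923240 to 114937915, plus strand) are neighbours. The other 6 form a second cluster. In order of position it holds Oas2 (ENSMUSG00000032690, 120730333 to 120749853, minus strand), Oas3 (ENSMUSG00000032661, 120753098 to 120777661, minus strand), Oas1c (ENSMUSG00000001166, 120800194 to 120812514, minus strand), Oas1b (ENSMUSG00000029605, 120812635 to 120824163, plus strand), Oas1g (ENSMUSG00000066861, 120876142 to 120887613, minus strand) and Oas1a (ENSMUSG00000052776, 120896256 to 120907521, minus strand). Oas1b is annotated as a polymorphic pseudogene and the other 7 as protein coding. Reads of Oas1a and Oas1g cannot be fully told apart, since 57.6% of the different 50-base words of Oas1a transcripts also occur in Oas1g, and 45.2% of those of Oas1g in Oas1a. The share of words found in any other Oas1 copy was 9.82% for Oas1c and 1.17% for Oas1b, and no word of Oas2, Oas3, Oasl1 or Oasl2 was found in another member or Oas1 copy.

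The promoters are shown because the members rose together under DMXAA while Oasl1 stood apart between genotypes. The RefSeq promoter table (GRCm38.p6) held 6 of the 8 members, all but Oas1b and Oas2, with 300 bases each. The letters searched for on both strands were GAAA, any 2 bases and GAAA again, the core of the element that interferon regulatory factors bind. Of 32851 promoters of that length in the table, 1131 (3.44%) held a match. The promoters of 4 of the 6 members did (Oas1a, Oas1g, Oas1c and Oas3), and those of Oasl1 and Oasl2 did not. Printed are the 120 bases before the start of Oas1a (chr5:120907526-120907645), Oas1g (chr5:120887614-120887733), Oas1c (chr5:120812515-120812634) and Oas3 (chr5:120777660-120777779), all on the minus strand, and of Oasl1 (chr5:114923120-114923239) on the plus strand, in the direction of the gene and with each match in capitals.

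Oas1a: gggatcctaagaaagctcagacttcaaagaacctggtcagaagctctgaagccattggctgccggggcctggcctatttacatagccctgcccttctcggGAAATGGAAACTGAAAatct

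Oas1g: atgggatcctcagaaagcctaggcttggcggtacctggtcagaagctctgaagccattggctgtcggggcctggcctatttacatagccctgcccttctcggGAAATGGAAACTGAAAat

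Oas1c: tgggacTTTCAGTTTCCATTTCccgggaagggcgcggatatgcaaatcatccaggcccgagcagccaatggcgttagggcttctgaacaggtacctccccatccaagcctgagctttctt

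Oas3: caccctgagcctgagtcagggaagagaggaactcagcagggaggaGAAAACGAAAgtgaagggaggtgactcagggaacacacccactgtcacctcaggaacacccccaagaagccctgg

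Oasl1: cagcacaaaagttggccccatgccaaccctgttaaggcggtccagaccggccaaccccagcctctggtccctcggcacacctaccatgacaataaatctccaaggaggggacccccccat

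In Oas1a and Oas1g a pair of overlapping matches made up the same 16 bases, beginning 20 bases before the start of Oas1a and 18 before that of Oas1g. Oas1c held the same 16 bases on the opposite strand, at bases 120812613 to 120812628. Oas1c and Oas1b are transcribed away from each other from starts 121 bases apart in the deposited annotation, and this run begins 22 bases before the start of Oas1b. Oas3 held 1 match, 75 bases before its start. A match is a description of letters and not of binding, and the absence of these letters from the windows of Oasl1 and Oasl2 says nothing of the factors that act there.

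Without agonist, Oas1a was the most abundant member in every BMDC library and in every BMDM library numbered 1 or 2, per FPKM. In BMDCs it was 17.2, 17.2 and 15.6 FPKM in WT and 15.4, 11.5 and 18.1 in CRE libraries. In BMDMs it was 17.5 and 20.6 in WT and 18.1 and 18.6 in CRE libraries. Oas1a therefore took 68.0% ± 2.46 (SD, n = 3) of the 8 genes' summed FPKM in WT BMDCs and 53.8% ± 6.30 (SD, n = 2) in WT BMDMs. Oasl1 was low in all of these libraries, at 0.116 to 0.528 FPKM, and took 1.37% ± 0.403 (SD, n = 3) and 1.23% ± 0.0820 (SD, n = 2) of the sum in WT BMDCs and WT BMDMs. The 4 genes of active synthetases (Oas1a, Oas1g, Oas2 and Oas3) together held 84.5% and 82.6% of the control sum in WT BMDCs and WT BMDMs.

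All 8 members rose under DMXAA in each of the 4 kinds of culture, WT and CRE BMDCs and WT and CRE BMDMs, and in each of the 4 the control and DMXAA libraries did not overlap for any member. Of all tested genes, 25.4%, 18.6%, 33.1% and 39.8% also had every DMXAA library above every control library in WT BMDCs, CRE BMDCs, WT BMDMs and CRE BMDMs. The background of calls in the same fits was 17.0% of tested genes higher under DMXAA in WT BMDCs, 14.0% in CRE BMDCs, 18.4% in WT BMDMs and 7.28% in CRE BMDMs. The members' median log2 fold change was 6.19, 6.17, 5.28 and 4.60 in that order, and the median over all tested genes was 0.0067, -0.0080, -0.079 and -0.0099. Oas2, Oas3, Oasl1 and Oasl2 in BMDCs and Oasl1 in BMDMs were under 1 FPKM in every control library and passed the filter only through the DMXAA libraries, so that they had to differ. The same 8 genes were called without that filter. The largest adjusted p of a member was 0.000351, 0.000509, 0.000450 and 0.00605 in the 4 comparisons (edgeR quasi-likelihood test, Benjamini-Hochberg over all tested genes). With the BMDM libraries numbered 3 included, 0 of 8 members passed the test in WT or CRE BMDMs. An unadjusted p under 0.05 was found for 8 and 6 of them, with no share of all genes at that level given here.

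**Figure D1:**
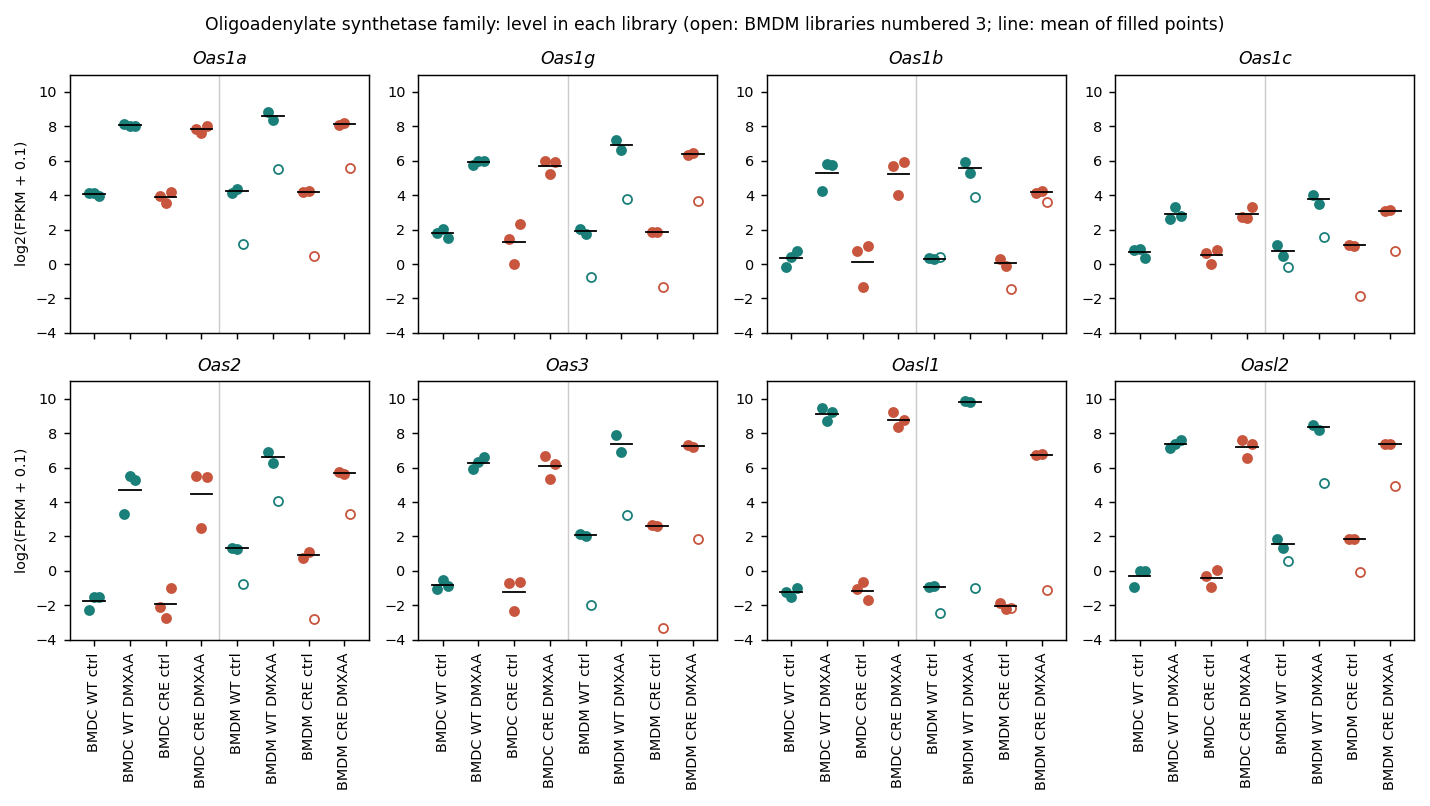
Level of each member in all 24 libraries, as log2(FPKM + 0.1) by group. Filled points are the libraries used in the fits, open points the BMDM libraries numbered 3, and lines the mean of the filled points. Every filled DMXAA point sits above every filled control point of its culture, and the filled Oasl1 points of CRE BMDMs under DMXAA (107 and 109 FPKM) sit below those of the other DMXAA groups (327 to 918 FPKM).

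Oasl1, the synthetase-dead regulator of Irf7 translation, had the largest response of the family in the libraries of the fits. In WT BMDMs it went from 0.413 and 0.454 FPKM to 918 and 880, and in CRE BMDMs from 0.172 and 0.116 to 107 and 109. In BMDCs it went from 0.331, 0.254 and 0.410 to 695, 421 and 590 in WT libraries, and from 0.375, 0.528 and 0.205 to 589, 327 and 425 in CRE libraries. All control libraries of the fits were thus below 1 FPKM and all their DMXAA libraries above 100. The log2 fold change was 10.70 ± 0.45 (SE) in WT BMDCs, 10.21 ± 0.44 in CRE BMDCs, 10.90 ± 0.20 in WT BMDMs and 9.51 ± 0.20 in CRE BMDMs. The CRE BMDM control libraries held 8 and 6 counts, and the SE there is narrower than counting error alone.

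Oasl2, the ubiquitin-like member with synthetase activity, had the largest change after Oasl1. Its levels were 0.414, 0.911 and 0.879 FPKM in WT control BMDCs and 140, 168 and 190 under DMXAA, and 0.698, 0.416 and 0.957 and then 194, 93.2 and 166 in CRE BMDCs. In BMDMs it went from 3.44 and 2.43 to 361 and 289 in WT libraries and from 3.47 and 3.47 to 164 and 163 in CRE libraries. The treated CRE BMDM libraries lay below both treated WT BMDM libraries. The log2 fold change was 7.79 ± 0.49 in WT BMDCs, 7.75 ± 0.49 in CRE BMDCs, 6.68 ± 0.23 in WT BMDMs and 5.53 ± 0.22 in CRE BMDMs.

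Oas2 and Oas3, the larger synthetases, started lower in BMDCs than in BMDMs. Oas3 was 0.374, 0.598 and 0.439 FPKM in WT control BMDCs and 4.34 and 3.92 in WT control BMDMs, and reached 61.5, 78.8 and 98.4 in the treated BMDCs and 235 and 119 in the treated BMDMs. Oas2 was 0.109, 0.252 and 0.252 in WT control BMDCs and 2.45 and 2.33 in WT control BMDMs, and reached 9.76, 45.8 and 38.9 in the treated BMDCs and 119 and 77.8 in the treated BMDMs. Control libraries of the 2 cell types did not overlap for either gene, and the share of all genes for which this holds is not given here. The log2 fold change under DMXAA was 7.38 ± 0.63 for Oas3 and 7.24 ± 1.03 for Oas2 in WT BMDCs, and 5.31 ± 0.34 and 5.25 ± 0.25 in WT BMDMs. Oas2 varied most among treated BMDCs, where 1 WT library (9.76 FPKM, number 1) and 1 CRE library (5.58, number 2) were far below the other 4 (38.9 to 45.8). Of the 6 treated BMDC libraries, these 2 had the most dendritic cell marker transcripts (13719 CPM in the WT and 11781 in the CRE library, against 7692 to 8222 in the other 4). They differed in other markers, with 6.96 CPM of neutrophil markers in the WT and more of them in the CRE library, as given above, and with 6459 and 2249 CPM of macrophage markers. The part of these transcripts in the values was not tested. In CRE BMDMs Oas3 went from 6.15 and 6.04 FPKM to 159 and 145, and Oas2 from 1.58 and 2.004 to 54.4 and 49.9. In CRE BMDCs Oas3 went from 0.512, 0.0974 and 0.545 to 102, 39.8 and 75.1, and its lowest control and lowest treated library were again number 2. The log2 fold change in CRE cells was 7.53 ± 0.63 for Oas3 and 7.29 ± 1.03 for Oas2 in BMDCs, and 4.61 ± 0.33 and 4.84 ± 0.25 in BMDMs.

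Oas1a, already expressed at rest, rose less in fold and reached high levels. Its FPKM under DMXAA was 277, 258 and 262 in WT BMDCs, 233, 191 and 258 in CRE BMDCs, 454 and 334 in WT BMDMs and 269 and 289 in CRE BMDMs. Oas1g, its close copy, went from 4.06 and 3.26 to 148 and 99.0 in WT BMDMs and from 3.43, 3.96 and 2.78 to 53.4, 62.5 and 64.0 in WT BMDCs. In CRE cells it went from 3.51 and 3.47 to 81.5 and 88.3 in BMDMs and from 2.61, 0.883 and 4.98 to 62.0, 37.5 and 60.2 in BMDCs. The split of reads between the 2 genes is uncertain, as given above. The log2 fold change of Oas1a was 3.97 ± 0.20 in WT BMDCs and 4.26 ± 0.20 in WT BMDMs, and that of Oas1g was 4.12 ± 0.49 and 4.96 ± 0.23.

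Oas1b, the gene cut short in common strains, was near 1 FPKM in control and rose to 18.9, 56.5 and 53.0 in WT BMDCs, 52.5, 16.0 and 59.3 in CRE BMDCs, 59.4 and 39.4 in WT BMDMs and 17.0 and 18.7 in CRE BMDMs. The low treated BMDC libraries were the ones that were low for Oas2 (WT number 1 and CRE number 2), which had the most dendritic cell marker transcripts. Oas1c changed least of the family. It went from 1.68, 1.76 and 1.16 FPKM to 6.04, 9.74 and 6.81 in WT BMDCs and from 2.06 and 1.26 to 16.2 and 11.3 in WT BMDMs, a log2 fold change of 2.27 ± 0.31 and 2.94 ± 0.28. In CRE BMDMs it was 2.02 and 1.99 FPKM in control and 8.18 and 8.76 under DMXAA. Its call there (log2 fold change 2.05 ± 0.27) was lost without any 1 of these 4 libraries, which left 7 members called in each case. Even for this gene the lowest treated library of a culture was above its highest control library, by the widest margin in WT BMDMs.

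**Figure D2:**
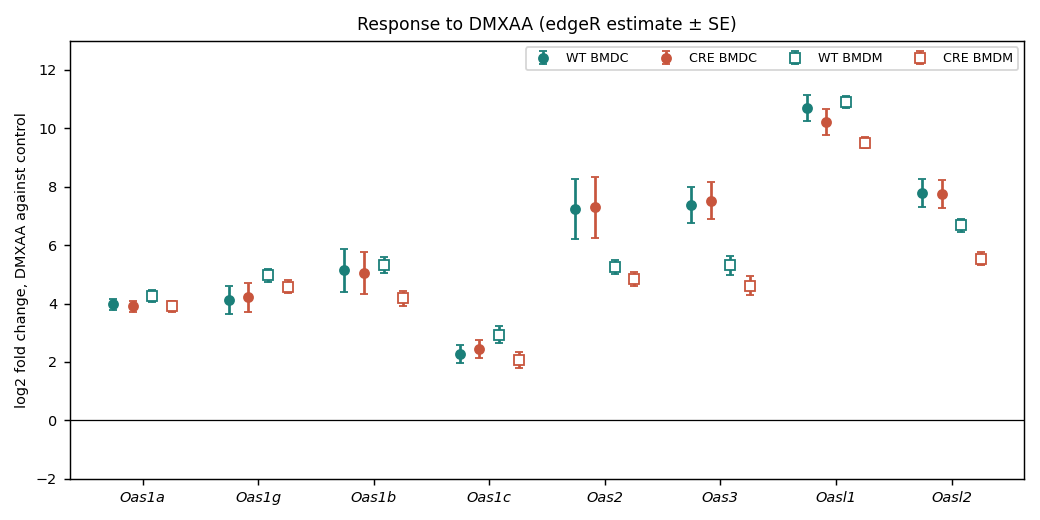
Log2 fold change of DMXAA against control for the 8 members, as edgeR estimates with their standard errors, in WT and CRE BMDCs (filled circles) and BMDMs (open squares). All 32 member values lie above 2 and Oasl1 lies highest in all 4 cultures.

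Within the family, the members' shares differed between control and treated libraries. In WT BMDCs the summed FPKM of the 8 genes went from 24.5 ± 1.56 to 1221 ± 107 (SD, n = 3), and in CRE BMDCs from 22.1 ± 7.10 to 1032 ± 290 (SD, n = 3). In WT BMDMs it went from 35.4 ± 0.0193 to 2080 ± 327 and in CRE BMDMs from 36.3 ± 0.240 to 866 ± 8.67 (SD, n = 2). Oasl1 became the largest part of the sum in every treated library except those of CRE BMDMs and those numbered 3 of BMDMs. Its share was 46.2% ± 8.44 (SD, n = 3) in WT BMDCs, 43.4% ± 4.02 (SD, n = 3) in CRE BMDCs and 43.7% ± 5.54 (SD, n = 2) in WT BMDMs. In CRE BMDMs it was 12.5% ± 0.0792 (SD, n = 2), and Oas1a remained the largest with 32.2% ± 1.34. Oas1a, Oas1g, Oas2 and Oas3 together held 36.0%, 37.5% and 37.7% of the sum in treated WT BMDCs, CRE BMDCs and WT BMDMs. They held 65.6% in treated CRE BMDMs. Oasl2, which is active too, held 13.7%, 14.4%, 15.6% and 18.9% in the same order. The 2 CRE BMDM libraries lay apart from the other 8 treated libraries of the fits in these shares, and the share itself was not tested.

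**Figure D3:**
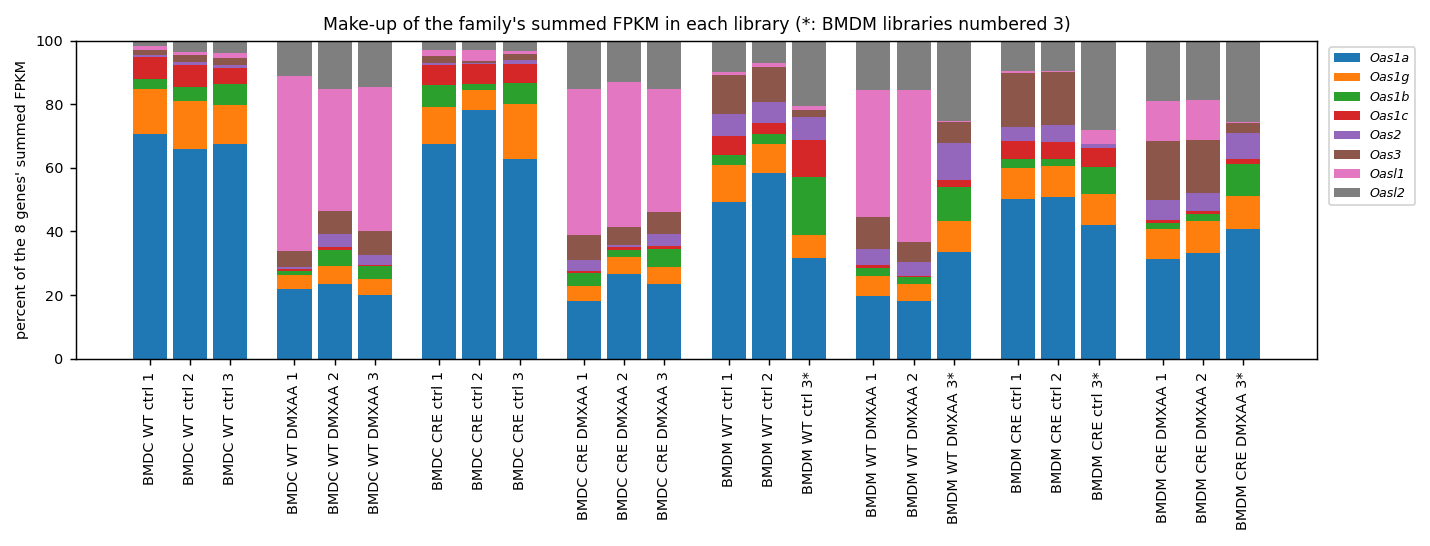
Percent of the 8 genes' summed FPKM taken by each member, 1 bar per library (an asterisk marks the BMDM libraries numbered 3). The Oasl1 segment is 1.37% on average in WT control BMDCs and 46.2% in the treated ones, and it is 12.5% in treated CRE BMDMs.

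In BMDMs under DMXAA, the libraries labelled CRE had lower levels of Oasl1, Oas1b, Oasl2 and Oas2 than those labelled WT. Of the 8 members, 4 passed the test as lower and 0 as higher, where 9.99% of all tested genes passed as lower in CRE. The members' median log2 difference was -0.76, against 0.0070 for all tested genes. Marker transcripts differed between the same libraries. The dendritic cell markers summed to 489 and 456 CPM in the treated CRE and 121 and 200 in the treated WT libraries, and the macrophage markers to 9358 and 9623 against 10899 and 12127. In control the dendritic cell markers were at 542 and 546 CPM in CRE and 257 and 264 in WT libraries. The part of these transcripts in the difference was not tested. Oasl1 was furthest apart, with 27087 and 33145 counts in WT and 4622 and 4595 in CRE libraries. Its log2 difference was -3.01 ± 0.13 (95% interval -3.33 to -2.69, edgeR adjusted p = 0.000529), an 8.06-fold lower level. Within a library, Oasl1 stood at 2.02 and 2.64 times the FPKM of Oas1a in the treated WT BMDMs and at 0.396 and 0.377 times in the treated CRE BMDMs, a ratio that the scaling between libraries does not touch.

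Oas1b followed with a log2 difference of -1.42 ± 0.22 (adjusted p = 0.00761), at 36.1% of the WT mean. Oasl2 was at 50.3% of the WT mean (-0.94 ± 0.18, adjusted p = 0.0148) and Oas2 at 53.0% (-0.86 ± 0.21, adjusted p = 0.0329). The 4 others did not pass. Oas1c differed by -0.65 (95% interval -1.27 to -0.027), Oas1g by -0.49 (-0.95 to -0.018) and Oas1a by -0.45 (-0.85 to -0.040), with CRE libraries below both WT libraries for each, as 33.1% of all tested genes were. Oas3 differed by -0.17 (-0.84 to 0.50), and its groups overlapped.

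The level of Oas3 in these 4 libraries shows how the scaling enters. Library number 1 held 18762 counts in WT and 18680 in CRE BMDMs under DMXAA, of totals of 16470157 and 18659452, and the deposited FPKM were 235 and 159. The authors' FPKM imply an effective library size of 0.687 times the total counts in the former and 0.891 times in the latter, and TMM gave 0.768 and 0.957. Both scalings lowered the size of the treated WT libraries more than that of the treated CRE libraries, for number 2 as well (0.771 and 0.884 times by FPKM, 0.847 and 0.946 by TMM).

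How many members were called in this comparison rests on single libraries. The counts that follow leave a lone library in a group and have no share of all genes beside them. They show only how the calls depend on the libraries. Without the treated WT library number 2, which held more fibroblast transcripts, 7 members were called, and without both WT libraries numbered 2 all 8 were. Without the treated WT library number 1 the calls were Oas1b and Oasl1, and without either treated CRE library only Oasl1 was called. Oasl1 was called in each of the settings tried other than the fit with all BMDM libraries, where 0 members were called, 0 had an unadjusted p under 0.05, and Oasl1 differed by -3.07. DESeq2 called Oas1a besides the same 4.

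In control BMDMs 0 of 8 members differed between CRE and WT in the main edgeR fit, where 0.0432% of all genes passed. An unadjusted p under 0.05 was found for 1 member, with no share of all genes at that level given here. That member was Oasl1 (log2 difference -1.63 ± 0.23, 95% interval -2.17 to -1.08, adjusted p = 0.160). It was 0.172 and 0.116 FPKM in CRE, which are 8 and 6 counts, and 0.413 and 0.454 in WT, which are 22 and 25. At so few counts, counting error alone is wider than this interval, which is therefore too narrow. DESeq2 called it, and limma called 0. The other 7 lay between -0.45 and 0.52. The test of whether the response itself differed between genotypes also called 0 of 8 members in the main edgeR fit, against 3.66% of all genes. Of the members, 3 had an unadjusted p under 0.05, with no share of all genes at that level given here. The difference of the responses (CRE minus WT) was -1.38 ± 0.29 for Oasl1 (adjusted p = 0.0803), -1.15 ± 0.26 for Oasl2 (0.0635) and -1.14 ± 0.35 for Oas1b (0.130), and all 8 lay between -1.38 and -0.35. The SE for Oasl1 rests on the same few control counts and is also narrower than counting error. Here DESeq2 called Oasl1 and Oasl2, limma on log2(FPKM + 1) called the same 2 and limma on log2(FPKM + 0.1) called Oasl1. With the number as a block within genotype, 3 members were called (Oas1c, Oasl1 and Oasl2). No share of all genes is given for these other fits, so their calls show only how the count depends on the fit.

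In BMDCs no difference between CRE and WT was detected for any member. In control, under DMXAA and in the difference of the responses, 0 of 8 members were called by edgeR, DESeq2 or limma, 0 had an unadjusted p under 0.05 by edgeR, and 0.0% of all 12126 tested genes were called. The estimates under DMXAA lay between -0.33 (Oasl1, 95% interval -0.97 to 0.30) and 0.020 (Oas1c, -0.62 to 0.66). The intervals were wide for Oas2 (-1.65 to 1.62) and Oas1b (-1.32 to 1.31), so that 2-fold differences in either direction lay within them, and were narrowest for Oas1a (-0.60 to 0.17). The Oasl1 difference of the treated BMDMs (-3.01) lies outside the BMDC interval. Leaving out both CRE libraries numbered 2 left the count at 0. As given above, Tmem173 did not separate these libraries by their label.

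**Figure D4:**
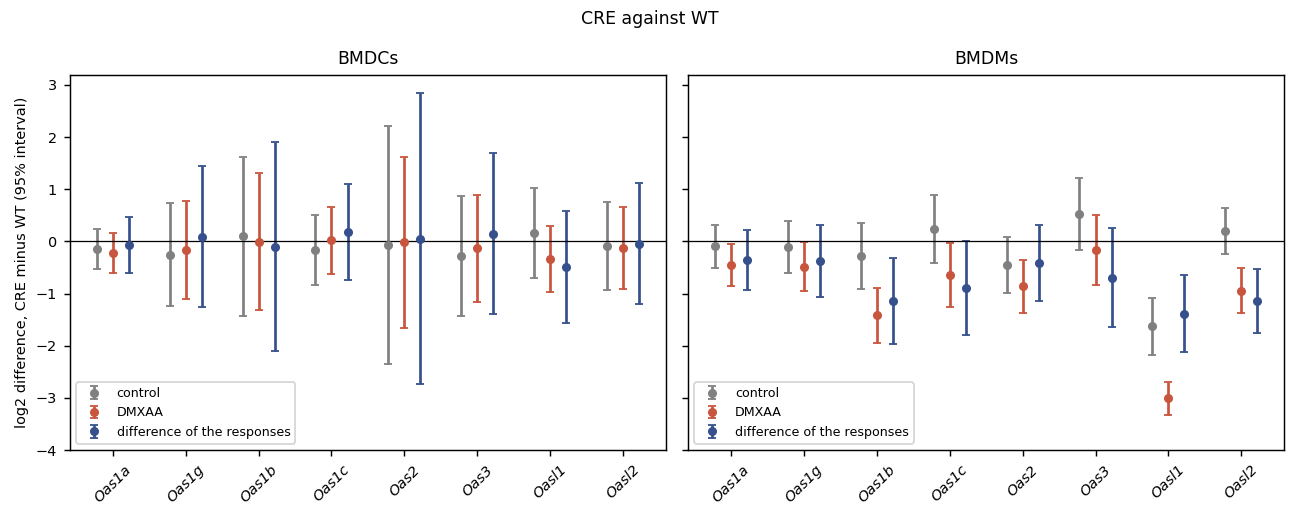
Log2 difference of CRE minus WT with its 95% interval for the 8 members in control (grey), under DMXAA (red) and as the difference of the responses (blue), in BMDCs (left) and BMDMs (right). In BMDCs every interval spans 0, while in BMDMs the DMXAA value of Oasl1 is -3.01 with an interval of -3.33 to -2.69.

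Resting WT BMDCs held less of 3 members than resting WT BMDMs. The log2 difference (BMDC minus BMDM) was -3.59 ± 0.84 for Oas2 (edgeR adjusted p = 0.00454), -3.19 ± 0.50 for Oas3 (0.000184) and -2.05 ± 0.36 for Oasl2 (0.000541), and the other 5 lay between -0.44 and 0.012. The background was 15.4% of tested genes lower in BMDCs. Under DMXAA 1 member was called as lower in BMDCs by edgeR, Oas1a (-0.52 ± 0.19, adjusted p = 0.0460), against a background of 15.3%. All 8 estimates were negative, from -1.58 to -0.15. An unadjusted p under 0.05 was found for 7, with no share of all genes at that level given here. The count moved from 0 to 6 with the settings and libraries used, and Oas1a was lost with the number as a block (log2 difference -0.48). With all BMDM libraries edgeR called 0 members in control and 0 under DMXAA, with 2 and 0 at an unadjusted p under 0.05, and the control differences of Oasl1, Oas1a, Oas1g and Oas1c turned positive. Cell type cannot be told apart here from the medium and cytokines in which the cells were grown.

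In the main fit the responses of the 2 cell types were not shown to differ for any member. The test of that difference called 0 of 8 by the main edgeR fit, DESeq2 or limma. In the main fit 2.61% of all genes were called. An unadjusted p under 0.05 was found there for 2 members, with no share of all genes at that level given here. Without the filter on low values edgeR called 2 members. The response was larger in BMDCs by 2.09 ± 0.68 for Oas3 (adjusted p = 0.140), 2.01 ± 1.11 for Oas2 (0.489) and 1.13 ± 0.51 for Oasl2 (0.336), the 3 genes that started lower there, and the estimates of the other 5 lay between -0.82 and -0.16.

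Ordered by mean FPKM, treated WT BMDMs had the highest level of all 8 members, overlapping with the next group for Oas1b and Oas3. Treated CRE BMDMs came next for Oas1a, Oas1g, Oas1c, Oas2 and Oas3, overlapping with the group after them for Oas1a and Oas1c, and treated WT BMDCs came next for Oas1b, Oasl1 and Oasl2. For Oasl1 the order was WT BMDMs (899 FPKM), WT BMDCs (568), CRE BMDCs (447) and CRE BMDMs (108), and only the neighbouring BMDC groups overlapped. For Oas1b treated CRE BMDMs (17.8) came last of the treated groups but overlapped with CRE BMDCs (42.6), which had 1 library at 16.0. The control groups all came after the treated ones, and at rest the BMDM groups lay above the BMDC groups without overlap for Oas2, Oas3 and Oasl2. The share of all genes whose cell types separate in this way is not given here.

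The BMDM libraries numbered 3, which held few macrophage transcripts, also had higher levels of all 8 members with DMXAA than without, but the treated level of Oasl1 was under 1 FPKM. There was 1 library per group here, so only values are given, with exact 95% intervals that cover counting error only. The ratio of CPM in the DMXAA to the control library was 21.8 (17.7 to 27.0) for Oas1a, 33.3 (25.3 to 44.8) for Oas2, 59.9 (40.7 to 92.0) for Oas3 and 25.1 (21.9 to 29.0) for Oasl2 in WT. It was 12.1 (9.22 to 16.0) for Oas1b, 3.69 (2.64 to 5.28) for Oas1c and 28.0 (19.1 to 42.8) for Oas1g. In CRE it was 46.4 (25.7 to 93.4) for Oas1b, 9.36 (4.73 to 21.1) for Oas1c and 42.2 (25.4 to 75.7) for Oas1g, so that Oas1b was below Oas1a in the WT pair alone and Oas1c was low in both. It was 38.5 (29.2 to 51.9) for Oas1a, 240 (93.3 to 881) for Oas2 and 35.9 (29.8 to 43.5) for Oasl2, and Oas3, with 0 counts in control and 619 with DMXAA, was at least 148-fold higher by the lower limit of its exact interval (183-fold over a floor of 3 counts). Oasl1 had 5 and 26 counts in WT and 7 and 23 in CRE (control and DMXAA), a ratio of 5.12 (1.94 to 17.1) and 2.92 (1.21 to 8.04). Its level under DMXAA was 0.410 and 0.360 FPKM, against 327 to 918 in the treated BMDC and WT BMDM libraries and 107 and 109 in the treated CRE BMDMs. Oasl1 thus stood at 0.00886 and 0.00751 times Oas1a in these 2 treated libraries. Irf7 had 64 and 1451 counts in WT and 12 and 1074 in CRE there (control and DMXAA), and Ifnb1 had 0 counts in both treated libraries.

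Of 3 genes of oligoadenylate turnover and ribosome recycling, Abce1, which encodes a ribosome recycling factor, fell under DMXAA in WT BMDCs (log2 fold change -1.03, adjusted p = 0.000206), CRE BMDCs (-0.89, 0.000724) and WT BMDMs (-1.36, 0.00121). It was 25.7 and 22.6 FPKM in control and 8.70 and 11.5 under DMXAA in WT BMDMs, and 20.6 and 21.7 and then 15.5 and 14.4 in CRE BMDMs, where the fold change of -0.52 was not called. Pde12, which degrades oligoadenylates, fell in WT BMDCs (-0.52, adjusted p = 0.0182), CRE BMDCs (-0.49, 0.0298) and WT BMDMs (-0.59, 0.0142), and was at -0.03 in CRE BMDMs. Akap7, which carries an oligoadenylate-degrading domain, rose in WT BMDMs (0.83, adjusted p = 0.0336) and was not called elsewhere. Of the further Oas1 copies, Oas1h was under 1 FPKM in every control library and passed the filter only through DMXAA libraries, so that it had to differ. It reached 2.03 and 1.30 FPKM in treated WT BMDMs, and Oas1d, Oas1e and Oas1f were below the filter.

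Over the pathway list, of 23 genes tested, 15 rose and 4 fell in WT BMDCs, 15 rose and 3 fell in CRE BMDCs, 16 rose and 3 fell in WT BMDMs, and 12 rose and 0 fell in CRE BMDMs. The backgrounds of genes that rose were those given above for the members, and those of genes that fell were 15.2%, 11.4%, 20.7% and 2.72% of tested genes in the same order. The counts of genes that rose include Oas1h, and in both BMDC responses Ifnb1. Ifnb1 had no counts in the control libraries of these fits, passed the filter only through DMXAA libraries and had to differ. Among 9 other sensors and effectors of double-stranded RNA and DNA, 7 rose in WT BMDCs, CRE BMDCs and WT BMDMs each, and 6 in CRE BMDMs. Dhx58, a helicase that modulates RNA sensing, had a log2 fold change of 5.05 in WT BMDCs and 4.86 in WT BMDMs, and Eif2ak2, the RNA-activated kinase PKR, 3.01 and 3.92. Of 10 genes of interferon signalling, 7 rose in WT BMDCs, CRE BMDCs and WT BMDMs each, and 5 in CRE BMDMs. Irf7, whose translation Oasl1 restrains, was 894 and 640 FPKM in treated WT BMDMs and 389 and 408 in treated CRE BMDMs, from 1.41 to 2.45 in the controls.

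**Figure D5:**
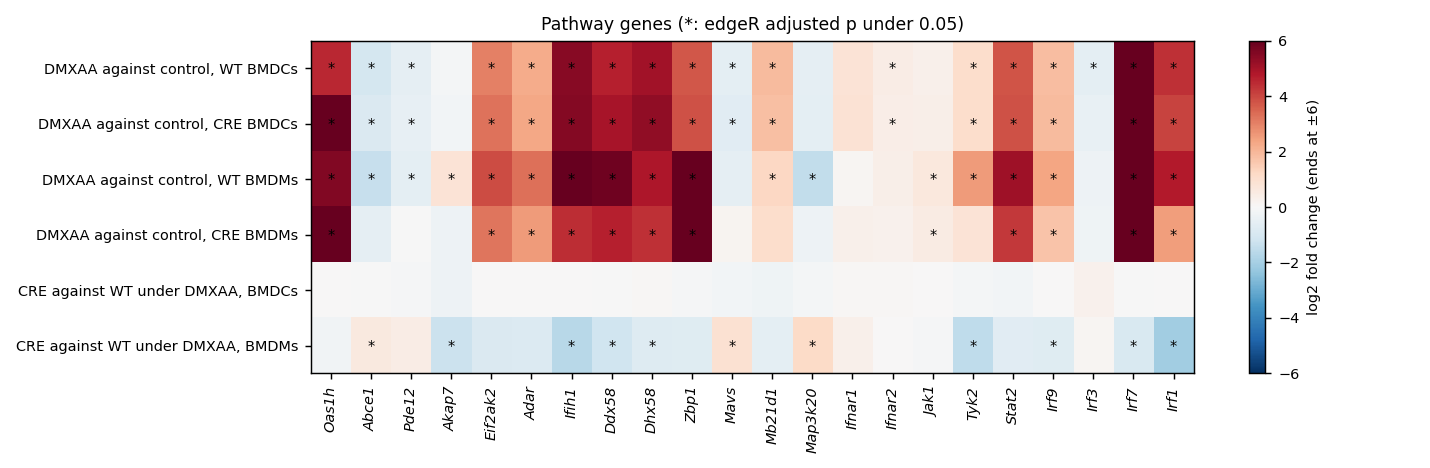
Log2 fold changes of the pathway genes that were tested, in the 4 responses to DMXAA and in CRE against WT under DMXAA, with an asterisk where the edgeR adjusted p was under 0.05 (colours end at ±6, and Ifnb1 is left out because its controls are at 0). No pathway gene is marked for CRE against WT in BMDCs, and 8 of the genes drawn are marked as lower and 3 as higher for it in BMDMs.

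Under DMXAA, 9 of the 23 pathway genes were lower and 3 higher in CRE than in WT BMDMs, where 9.99% of all tested genes were lower and 9.26% higher. The lower ones were Irf1 (log2 difference -2.10), an early interferon regulatory factor, and Ifih1 (-1.65) and Ddx58 (-1.21), which encode the RNA sensors MDA5 and RIG-I. Also lower were Tyk2 (-1.51), a kinase gene of interferon signalling, Akap7 (-1.27), Irf7 (-0.89), Dhx58 (-0.77), Irf9 (-0.71) and Ifnb1, the gene of interferon beta. The higher ones were Map3k20 (1.16), a kinase of the ribotoxic stress response, Mavs (0.92), the adaptor of the RNA sensors, and Abce1 (0.61). Ifnb1 was 0 FPKM in every control library of the fits. It passed the filter of the BMDM fit only through the treated WT libraries, so that it had to be lower in CRE. It was 2.48 and 19.2 FPKM in treated WT BMDMs and 0 and 0.0826 in treated CRE BMDMs, where all 8 members rose, and 57.0, 35.0 and 56.0 in treated WT and 52.3, 20.3 and 46.4 in treated CRE BMDCs. In BMDCs 0 of the 23 genes were called between CRE and WT under DMXAA.

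By Pearson correlation of log2(FPKM + 1) with the members' mean over the 20 libraries without the BMDMs numbered 3, the 5 most similar of 13360 other genes were Parp12 (0.996), Ifit2 (0.996), Dhx58 (0.995), Ifi203 (0.995) and Irgm2 (0.994). These points share libraries and are mostly set by the contrast of treated and untreated cells. In CRE against WT BMDMs under DMXAA, their log2 differences were -0.95 for Parp12, -1.59 for Ifit2, -0.77 for Dhx58, -1.08 for Ifi203 (not called) and -1.52 for Irgm2, each of smaller size than that of Oasl1.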

How the data were processed

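Poly(A) RNA of 24 libraries was sequenced, and the table used here holds 54532 genes with 2 values per library. The authors' counts are raw reads per gene, and the submitters' processing notes name CASAVA 1.8, fastp, HISAT2 2.0.5, featureCounts 1.5.0-p3 and DESeq2 1.20.0, with GRCm38; strand use was not given in the sources used here. The deposited FPKM were scaled by the authors to gene length and to an effective library size, which was 0.687 to 1.33 times the total count. Columns with the authors' own group means, fold changes and p-values were not used. Of the per-sample columns, 48 matched a library and 0 did not.

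Genes with at least 1 FPKM in at least as many libraries as the smallest group of the fit were tested on counts with edgeR 4.0.16 (R 4.3.3), using TMM scaling, the quasi-likelihood F test, two-sided, and Benjamini-Hochberg adjustment over all tested genes, called below 0.05. The BMDC fit held 12 libraries and 12126 genes, the BMDM fit 8 libraries (numbers 1 and 2) and 11569 genes, and the fit of both cell types 20 libraries and 13368 genes. A positive log2 value is higher in the group named first. Standard errors are the log2 fold change over the square root of F, and 95% intervals use the degrees of freedom of that test. At very low counts both can be narrower than counting error. The edgeR test was tried on simulated counts for DMXAA against control in WT BMDCs and WT BMDMs. Alternatives used DESeq2 1.42.0, limma 3.58.1 on log2(FPKM + 1) and log2(FPKM + 0.1), other filters and scaling, and left-out libraries. The fits without the CRE BMDC or the WT BMDM libraries numbered 2 were chosen after seeing the data. Promoter sequences came from RefSeq, and gene positions from the deposited table, which the reference annotation matched for 8 of 8 members. Figures were drawn with matplotlib 3.10.9.

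All 8 members were named, with a pathway list of 26 genes, Tmem173, marker lists and the 5 genes of most similar pattern. The members, the lists and the setting apart of BMDM number 3 were chosen with earlier results of these data known. After the group means were removed, libraries of the same number and label in control and DMXAA correlated in BMDCs at 0.395 to 0.677. The numbers may thus pair control with DMXAA there. In BMDMs there were 2 such pairs, at 0.656 and 0.0310, which do not decide a pairing. The main fits of both cell types compared groups without a pairing, and blocks by number entered as alternatives only. Some genes first put on the pathway list are not reported here.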

Additional observations from a re-analysis of the deposited data

Results flagged for a closer look

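For 3 genes of the pathway list the response to DMXAA differed between CRE and WT BMDMs by the test of the interaction in edgeR. That test called 3.66% of all tested genes. The difference of the log2 responses (CRE minus WT) was -2.25 for Irf1, -1.84 for Ifih1 and 1.16 for Map3k20, each with n = 2 libraries a group. Zbp1, a sensor of nucleic acids in the Z form, responded less in WT BMDCs than in WT BMDMs, with a difference of the log2 responses of -3.66. The test between cell types called 2.61% of all tested genes. Zbp1 started higher in WT BMDCs, at 7.45, 7.07 and 5.87 FPKM in control against 0.902 and 1.09 in WT BMDMs. Under DMXAA it was 81.7, 98.9 and 95.8 FPKM in WT BMDCs and 232 and 138 in WT BMDMs. No member of the family passed either of these tests in the main edgeR fits, and other settings called some, as given below. In the BMDM libraries numbered 3, which entered no test, 8 of 8 members were higher in the DMXAA than in the control library labelled WT, and 8 of 8 in the pair labelled CRE.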

How the results depend on the processing

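Of 928 values of members recomputed, 845 kept their direction and side of the threshold, 29 lost a call (24 of them with all BMDM libraries), 37 gained one and 17 changed sign, none of which was a called value. Causes were not tested. With all BMDM libraries the members called were 0 in both BMDM responses, between CRE and WT under DMXAA, and between WT BMDCs and WT BMDMs in control and under DMXAA. Without 1 library at a time, 1 to 7 were called for CRE against WT BMDMs under DMXAA, 0 to 1 in control, 0 to 4 for the difference of responses and 0 to 2 for WT BMDCs against BMDMs under DMXAA. Without both WT BMDM libraries numbered 2 they were 8, 3 and 8 for the first 3 of these. In control BMDMs DESeq2 called 1 and the fit without a filter 1. For the difference of responses in BMDMs, DESeq2, no filter and limma on log2(FPKM + 1) called 2 each, the stricter filter (5 FPKM) and limma on log2(FPKM + 0.1) 1 each, the replicate block 1, and the block within genotype 3. For WT BMDCs against BMDMs under DMXAA, DESeq2, median of ratios scaling, the stricter filter and limma on log2(FPKM + 0.1) called 3 each, no filter 5, limma on log2(FPKM + 1) 6, the replicate block 0 and the compared groups alone 2. For the difference of responses between cell types, no filter called 2. The block changed no other count of members. Signs changed for these log2 values. In BMDCs, CRE against WT, Oas1b was 0.0030 under DMXAA with the stricter filter, and in control -0.020 and -0.18 with limma at + 1 and + 0.1. For the difference of responses there, limma gave Oas3 -0.11 and Oas2 -0.18 at + 1, and Oas2 -0.037 and Oas1b 0.12 at + 0.1, and the block within genotype gave Oas1b 0.035. For WT BMDCs against BMDMs in control, all BMDM libraries gave Oasl1 0.064, Oas1a 0.30, Oas1g 0.37 and Oas1c 0.17, and Oas1b was -0.020 without a filter and -0.25 with the replicate block. Under DMXAA all BMDM libraries gave Oas1b 0.19. For the difference between cell types, limma at + 1 gave Oas2 -0.34 and all BMDM libraries gave Oas1b 0.15. With 2 BMDM libraries a group, leaving 1 out assumes that the lone library varies like the other groups. No share of all genes is given for these settings, so their counts show only how the calls depend on them.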
